A study of Mus musculus with 7 samples.

Results

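The genes described here encode 4 families of guidance molecules of the developing brain and its vessels: the ephrins and their Eph receptor kinases, the Slits and their Robo receptors, the plexins, and the semaphorins of classes 4 to 7, which are plexin ligands for the most part. They were chosen by gene symbol, and class 3 semaphorins were not taken. In all, 51 of the 40873 genes with a complete line in the deposited table met the rule: 9 EphA and 5 EphB receptors, 5 ephrin-As, 3 ephrin-Bs, 3 Slits, 4 Robos, 9 plexins, and 6, 2, 4 and 1 semaphorins of classes 4, 5, 6 and 7.

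RNA sequencing after poly(A) selection was done on lateral ventricle choroid plexus, pooled at E15.5 (embryonic day) from embryos of CD-1, an outbred mouse stock, with the genotype labelled wild type. One group had received red blood cells 24 h earlier (3 libraries), and the control group had received saline (4 libraries). The cells came from blood of an E14.5 donor litter, taken into sodium citrate and washed in saline. The labels place all 7 libraries in batch 1 and number them as biological replicates. How many embryos went into a pool is not stated in the labels, so a p-value here reflects variation between pools that may be partly technical.

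Ephrins are bound to the cell surface, by a lipid anchor in the A class and a transmembrane segment in the B class, so that Eph signalling needs contact between cells and can run in both directions. Slits are secreted and repel cells that carry Robo1 or Robo2. Plexins are receptors that act on the cytoskeleton through small GTPases. In the choroid plexus these genes can be carried by the epithelium, the stroma, the vessels or the macrophages, and in bulk RNA fewer cells of a type and less RNA per cell cannot be told apart.

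After red blood cells 24 h earlier, no member passed the test over all genes. Robo3, a receptor best known for steering axons across the midline, stood furthest from its saline level, at 2.35 times, but missed the threshold (edgeR adjusted p = 0.136). Of the 9 most abundant members per length over all 7 libraries, Slit2 was at 0.858 times its saline level (edgeR adjusted p = 0.602). Plxnb2, Slit3, Plxnb1, Plxna1, Plxnd1, Ephb4, Efnb1 and Robo4 lay between 0.931 and 1.07 times theirs. Efnb3, just above Robo4 per length after saline alone, was at 0.862 times its saline level (edgeR adjusted p = 0.739). What the members did show was a wide spread among the 3 red blood cell libraries, which were singled out after their values were seen. Library 2 was lowest for 23 of 49 members (17.1% of all genes) and library 3 highest for 18 (16.7%). Both held for 10 (4.03%). Summed mesenchyme, endothelial and pericyte markers had the same order.

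Of the 51 members, 49 had enough counts to be tested. The adjusted p was under 0.05 for 0 of 49 in edgeR, against 0.0605% of all 14869 genes tested, and for 0 members in DESeq2 (1.64% of all genes) and in limma-voom (0.0605%). At an unadjusted p under 0.05 there were 3 of 49 in edgeR, against 9.54% of all genes. Robo3 was higher, where 5.22% of all genes were called in that direction, and Sema4g and Efna5 were lower, where 4.32% were. DESeq2 gave 3 members at that level (Robo3, Sema4g and Ephb1) against 4.88%, and limma-voom gave 5 (Robo3, Sema4g, Efna5, Ephb1 and Sema6d) against 9.69%. Robo3 was the 1 member whose groups did not overlap, against 9.59% of all genes, of which 4.96% were higher and 4.63% lower. The 95% interval of the fold change stayed within 2-fold in both directions for 39 of the 49 members. The same count was not made over all genes, where the median absolute log2 fold change was 0.103, against 0.168 among the members.

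Before the single genes, their usual levels help to place them. Levels are given as RPKM (CPM divided by exon length in kilobases) where genes are compared with each other, and as CPM (counts scaled to TMM library size) for the same gene across libraries. The libraries held 4393860 to 8386928 counts each, and 3 counts corresponded to between 0.359 and 0.695 CPM.

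**Figure D1:**
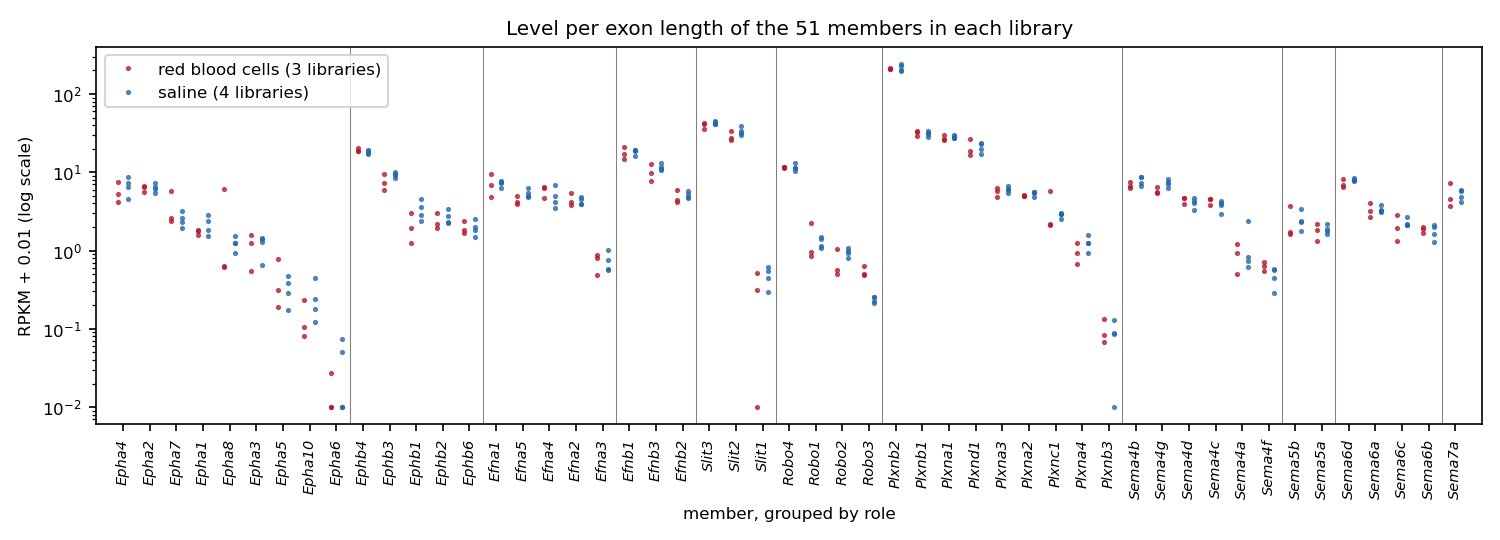
Level of each of the 51 members in each library, as RPKM + 0.01 on a log scale, with the 3 red blood cell libraries in red on the left and the 4 saline libraries in blue on the right of each gene. Plxnb2 lies far above every other member, Epha6 and Plxnb3 lie near 0, and the groups overlap for every tested member but Robo3.

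Plxnb2, which encodes a plexin that binds class 4 semaphorins, was by far the most abundant member, with 211 ± 2.17 RPKM after red blood cells and 219 ± 20.2 RPKM after saline (SD, n = 3 and n = 4). It made up 69.0 ± 0.794% of the summed plexin RPKM after red blood cells and 69.5 ± 1.35% after saline. Slit3 came next per length, and Slit2 was near Plxnb1. Slit3 and Slit2 had 40.0 ± 3.48 and 28.7 ± 4.18 RPKM after red blood cells, against 42.9 ± 2.01 and 33.4 ± 4.01 RPKM after saline. In CPM their order was reversed, with 215 for Slit3 and 397 for Slit2 after saline. Plxnb1, Plxna1 and Plxnd1, receptors for Sema4D, class 6 and class 3 semaphorins, had between 20.7 and 31.8 RPKM in both groups. Among the Eph receptors Ephb4, the receptor that marks veins, was the most abundant, and among the ephrins Efnb1. Robo4, the Robo of endothelial cells, made up 81.9 ± 4.18% of summed Robo RPKM after red blood cells and 82.6 ± 0.907% after saline. These shares depend on exon length, which is 4011 bases for Robo4, 17899 for Robo1 and 22768 for Robo2. Without division by length, Robo4 averaged 46.6 CPM after saline, beside 22.9, 21.4 and 1.498 CPM for Robo1, Robo2 and Robo3.

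At the other end, Epha6 and Plxnb3 were too low to test. Epha6 had 2, 0 and 0 counts after red blood cells and 0, 0, 5 and 4 after saline, and Plxnb3 had 6, 3 and 2 counts after red blood cells and 5, 3, 0 and 2 after saline. Slit1, a Slit of neurons, had 20, 0 and 23 counts after red blood cells and 30, 22, 42 and 10 after saline. The 0 of library 2 allows up to 0.454 CPM, counting error only.

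Robo3 departs from the other Robos in mammals: it does not bind Slits with high affinity and promotes crossing of the midline by commissural axons. It spans bases 37327341 to 37344730 of chromosome 9 on the minus strand of GRCm39, and its neighbour Robo4 spans 37313198 to 37325319 on the plus strand, with 2021 bases between their 3′ ends. No other gene of the table shares exon bases with Robo3. The 300 bases around the annotated start (250 before, 50 after) are printed for Robo3, for Robo4 as its neighbour, and for the 2 further members at an unadjusted p under 0.05. The sequences are those of RefSeq on GRCm38.p6, chr9:37433126-37433425 (minus strand), chr9:37401722-37402021 (plus strand), chr19:44989094-44989393 (plus strand) and chr17:62881268-62881567 (minus strand), each read 5′ to 3′ on the gene's strand. Capitals mark the GC box, GGGCGG or its reverse complement CCGCCC, the site of Sp1 family factors.
Robo3: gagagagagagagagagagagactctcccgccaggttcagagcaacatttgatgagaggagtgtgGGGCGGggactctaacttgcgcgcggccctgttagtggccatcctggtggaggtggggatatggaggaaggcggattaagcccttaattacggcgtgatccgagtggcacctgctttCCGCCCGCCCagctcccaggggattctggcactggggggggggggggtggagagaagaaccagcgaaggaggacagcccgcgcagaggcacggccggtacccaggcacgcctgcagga
Robo4: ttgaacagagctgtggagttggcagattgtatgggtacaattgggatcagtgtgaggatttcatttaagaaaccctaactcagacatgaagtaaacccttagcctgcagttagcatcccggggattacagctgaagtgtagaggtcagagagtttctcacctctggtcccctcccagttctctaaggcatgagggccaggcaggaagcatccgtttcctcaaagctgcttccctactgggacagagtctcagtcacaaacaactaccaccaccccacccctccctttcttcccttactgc
Sema4g: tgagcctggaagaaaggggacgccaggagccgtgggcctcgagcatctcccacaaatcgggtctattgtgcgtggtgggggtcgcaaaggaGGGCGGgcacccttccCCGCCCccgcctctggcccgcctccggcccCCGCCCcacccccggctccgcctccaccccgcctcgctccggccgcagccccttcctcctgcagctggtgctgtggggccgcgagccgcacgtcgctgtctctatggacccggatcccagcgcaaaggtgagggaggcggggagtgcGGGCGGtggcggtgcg
Efna5: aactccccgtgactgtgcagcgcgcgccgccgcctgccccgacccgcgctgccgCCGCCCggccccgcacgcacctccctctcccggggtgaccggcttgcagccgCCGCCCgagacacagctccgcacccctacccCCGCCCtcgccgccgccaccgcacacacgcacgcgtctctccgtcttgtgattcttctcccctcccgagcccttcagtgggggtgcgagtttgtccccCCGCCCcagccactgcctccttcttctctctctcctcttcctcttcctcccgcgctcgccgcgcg

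The Robo3 window holds 3 GC boxes, 2 of them overlapping, and 17 CpG pairs, while the Robo4 window holds no GC box and 2 CpG pairs. The Sema4g and Efna5 windows hold 4 GC boxes each, with 30 and 38 CpG pairs. Over the members, 44 of 62 listed promoters, from 46 genes, hold a GC box, against 35.7% of all 32851 promoters. Member windows also held more CpG pairs, with a median of 19.5 against 7 over all promoters, and the part of this in the GC box share was not tested. No kappa-B site, AP-1 site (TGACTCA), STAT site (TTCNNNGAA) or interferon-stimulated response element was found on either strand of the 4 windows, where 8.46%, 5.20%, 8.30% and 3.44% of all promoters hold one. Of the 62 member promoters 8 hold a kappa-B site, 2 an AP-1 site, 2 a STAT site and 2 an interferon-stimulated response element. Plxna4, Plxna1, Efnb3, Sema6a and Slit1 were not matched. A match describes letters only.

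Robo3 had 26, 21 and 23 counts in red blood cell libraries 1, 2 and 3, and 9, 10, 12 and 7 counts in saline libraries 1 to 4. In CPM these were 3.26, 3.18 and 4.16 after red blood cells and 1.33, 1.604, 1.44 and 1.62 after saline. Every red blood cell library lay above every saline library. The means were 3.53 ± 0.547 CPM after red blood cells and 1.498 ± 0.140 CPM after saline (SD, n = 3 and n = 4). The log2 fold change was 1.23 ± 0.29 (SE, 95% interval 0.60 to 1.86), with an unadjusted p of 0.00118 and an edgeR adjusted p of 0.136. These are low counts, and Robo3 was the least abundant member tested after saline in CPM. Robo4 next to it had 46.3, 45.7 and 46.9 CPM after red blood cells and 52.8, 41.4, 46.1 and 46.1 CPM after saline, with overlapping groups and a log2 fold change of -0.01 ± 0.09 (edgeR adjusted p = 0.991).

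**Figure D2:**
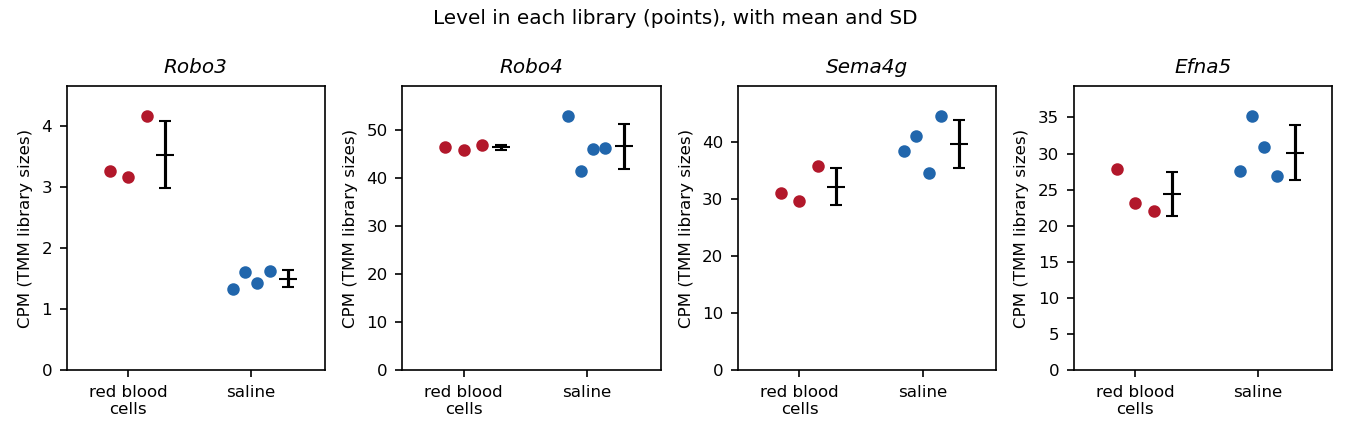
CPM of Robo3, Robo4, Sema4g and Efna5 in each library (points) with the mean and SD (black), red blood cells on the left and saline on the right of each panel, axes from 0. The Robo3 groups are apart, at 3.18 to 4.16 and 1.33 to 1.62 CPM, and the other panels overlap.

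Robo1 and Robo2, the Slit receptors of migrating neurons and axons, differed widely among the red blood cell libraries. Robo1 had 15.2, 16.9 and 40.0 CPM after red blood cells and 26.6, 20.5, 19.0 and 25.2 CPM after saline. Library 3 was thus above and libraries 1 and 2 below all saline libraries. Robo2 had 23.5, 11.3 and 12.7 CPM after red blood cells and 21.1, 22.1, 24.0 and 18.3 CPM after saline, with libraries 2 and 3 below every saline library and library 1 within their range (log2 fold change -0.43 ± 0.24, edgeR adjusted p = 0.635).

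The 3 Slits were each lower by estimate and none passed. Slit2, the Slit best known for repelling axons and neurons, had 397, 303 and 321 CPM after red blood cells and 351, 461, 403 and 373 CPM after saline (log2 fold change -0.22 ± 0.11, edgeR adjusted p = 0.602). Libraries 2 and 3 lay below every saline library and library 1 within them. Slit3 had 179.9, 208 and 212 CPM after red blood cells and 206, 207, 217 and 228 CPM after saline (-0.10 ± 0.07, edgeR adjusted p = 0.742), with overlapping groups. Summed over the 3 genes, Slit RPKM was 69.8, 67.1 and 70.02 after red blood cells and 71.4, 80.7, 77.9 and 77.3 after saline. These sums did not overlap, by a margin of less than 2 RPKM, and are given as a description. The summed RPKM of every other role overlapped between the groups. Of all genes taken singly, 9.59% did not overlap.

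Among the EphB receptors, Ephb4 had 82.0, 81.2 and 89.8 CPM after red blood cells and 84.2, 76.9, 73.9 and 81.1 CPM after saline (log2 fold change 0.09 ± 0.08, 95% interval -0.07 to 0.26, edgeR adjusted p = 0.791). The groups overlapped, and the interval of the fold change ran from 0.950 to 1.20. Ephb1 had 9.04, 5.75 and 13.9 CPM after red blood cells and 13.2, 21.5, 11.1 and 16.7 CPM after saline (-0.71 ± 0.32, edgeR adjusted p = 0.534). Its libraries 1 and 2 were below every saline library while library 3 was among them. Ephb3, a receptor of epithelial boundaries, averaged 31.4 ± 7.33 CPM after red blood cells and 38.9 ± 2.97 CPM after saline (-0.30 ± 0.14, edgeR adjusted p = 0.554). Ephb2 and the kinase-dead Ephb6 had log2 fold changes of -0.18 ± 0.19 and -0.02 ± 0.21.

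Several EphA receptors were far higher in 1 library than in the others. Epha4, which binds both ephrin classes and was the most abundant of them per length over all 7 libraries, just ahead of Epha2, had 34.0, 26.9 and 48.7 CPM after red blood cells and 46.3, 55.5, 29.4 and 41.0 CPM after saline (log2 fold change -0.24 ± 0.27, edgeR adjusted p = 0.872). Epha8 had 25, 20 and 169 counts after red blood cells and 51, 38, 38 and 27 after saline. In CPM these were 3.14, 3.03 and 30.6 after red blood cells and 7.54, 6.10, 4.55 and 6.25 after saline. Library 3 alone was high, at 6.001 times the mean of the other 6 libraries, and libraries 1 and 2 were below every saline library, so that the log2 fold change of 0.97 had an SE of 0.92. Epha7 and Epha5 were also high in library 3, with 70.1 CPM of Epha7 there and 24.1 to 39.5 CPM elsewhere, and with 13.04 CPM of Epha5 there and 2.73 to 7.68 CPM elsewhere. Epha2, an epithelial receptor, had 25.8 ± 2.42 CPM after red blood cells and 26.2 ± 3.09 CPM after saline. Epha1, Epha3 and Epha10 had log2 fold changes of -0.29 ± 0.24, -0.11 ± 0.36 and -0.82 ± 0.53.

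Of the ephrins, Efna5, a repellent of retinal axons, had 27.9, 23.1 and 22.1 CPM after red blood cells and 27.6, 35.1, 30.9 and 26.9 CPM after saline. Libraries 2 and 3 were below every saline library and library 1 within them, with a log2 fold change of -0.30 ± 0.13, an unadjusted p of 0.0351 and an edgeR adjusted p of 0.453. Efna1, the most abundant ephrin-A per length and a ligand of Epha2, had 11.2, 8.02 and 15.6 CPM after red blood cells and 12.7, 12.03, 12.3 and 10.4 CPM after saline (-0.05 ± 0.21, edgeR adjusted p = 0.975). Efna2, Efna3 and Efna4 had log2 fold changes of 0.06 ± 0.18, -0.02 ± 0.32 and 0.28 ± 0.24. Efnb1 had 56.6, 50.1 and 70.4 CPM after red blood cells and 64.4, 62.4, 54.5 and 64.9 CPM after saline (-0.06 ± 0.11, edgeR adjusted p = 0.934), the red blood cell libraries reaching beyond the saline range on both sides. Efnb2, the arterial partner of Ephb4, had the same arrangement, and Efnb3 passed the saline range only below it. For both, library 2 was lowest of all 7, and the log2 fold changes were -0.10 ± 0.12 and -0.21 ± 0.15.

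Plxnb2 had 1436, 1464 and 1460 CPM after red blood cells, all within the saline range of 1415, 1594, 1369.7 and 1660.5 CPM (log2 fold change -0.05 ± 0.08, 95% interval -0.22 to 0.11, edgeR adjusted p = 0.906). Plxnb1 and Plxna1 had log2 fold changes of 0.03 ± 0.08 and -0.05 ± 0.07. Plxna2 and Plxna3 had -0.10 ± 0.08 and -0.10 ± 0.11. Plxnd1 had 137, 122 and 195 CPM after red blood cells and 145, 172, 126 and 165 CPM after saline (-0.01 ± 0.18), with library 2 below and library 3 above every saline library. Plxnc1, the receptor of Sema7A, had 17.1, 17.2 and 46.4 CPM after red blood cells and 23.3, 23.4, 24.3 and 19.9 CPM after saline (0.22 ± 0.38), again with library 3 alone above and the other two below all saline libraries. Plxna4, an axonal receptor for class 6 semaphorins, had a log2 fold change of -0.41 ± 0.23 (edgeR adjusted p = 0.631).

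Among the semaphorins, Sema4g, a transmembrane member, had the lowest p. It had 31.0, 29.6 and 35.9 CPM after red blood cells and 38.4, 41.1, 34.6 and 44.5 CPM after saline (log2 fold change -0.30 ± 0.11, unadjusted p = 0.0204, edgeR adjusted p = 0.363). Libraries 1 and 2 lay below every saline library, and library 3 lay above saline 3 alone. Sema4b, the most abundant of class 4 per length, had 26.5, 28.4 and 31.9 CPM after red blood cells and 31.03, 37.2, 28.5 and 37.1 CPM after saline, with overlapping groups (-0.21 ± 0.12, edgeR adjusted p = 0.669). Sema4c and Sema4d, ligands of plexin-B2 and plexin-B1, had log2 fold changes of 0.20 ± 0.13 and 0.11 ± 0.13, and Sema4f 0.43 ± 0.30. Sema4a had 2.26, 5.45 and 4.16 CPM after red blood cells and 3.25, 2.73, 3.71 and 10.7 CPM after saline, where saline 4 was more than 2-fold above the other saline libraries.

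In class 6, Sema6d, a ligand of plexin-A1, had 141, 131 and 165 CPM after red blood cells and 159.7, 171, 163 and 164 CPM after saline (log2 fold change -0.17 ± 0.08, edgeR adjusted p = 0.544). Libraries 1 and 2 were below the narrow saline range and library 3 inside it. Sema6a, Sema6b and Sema6c had -0.02 ± 0.13, 0.08 ± 0.21 and -0.17 ± 0.23. In class 5, Sema5b, the more abundant per length, had 9.17, 9.83 and 20.8 CPM after red blood cells and 13.6, 19.3, 10.2 and 12.97 CPM after saline (-0.09 ± 0.33, edgeR adjusted p = 0.969). Its library 3 was above and libraries 1 and 2 were below every saline library. Sema5a had -0.08 ± 0.17. Sema7a, which is held at the surface by a lipid anchor, had 17.6, 14.4 and 28.6 CPM after red blood cells and 23.3, 18.8, 16.1 and 22.5 CPM after saline (log2 fold change -0.003 ± 0.23, edgeR adjusted p = 0.998), the red blood cell libraries reaching past the saline range on both sides.

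**Figure D3:**
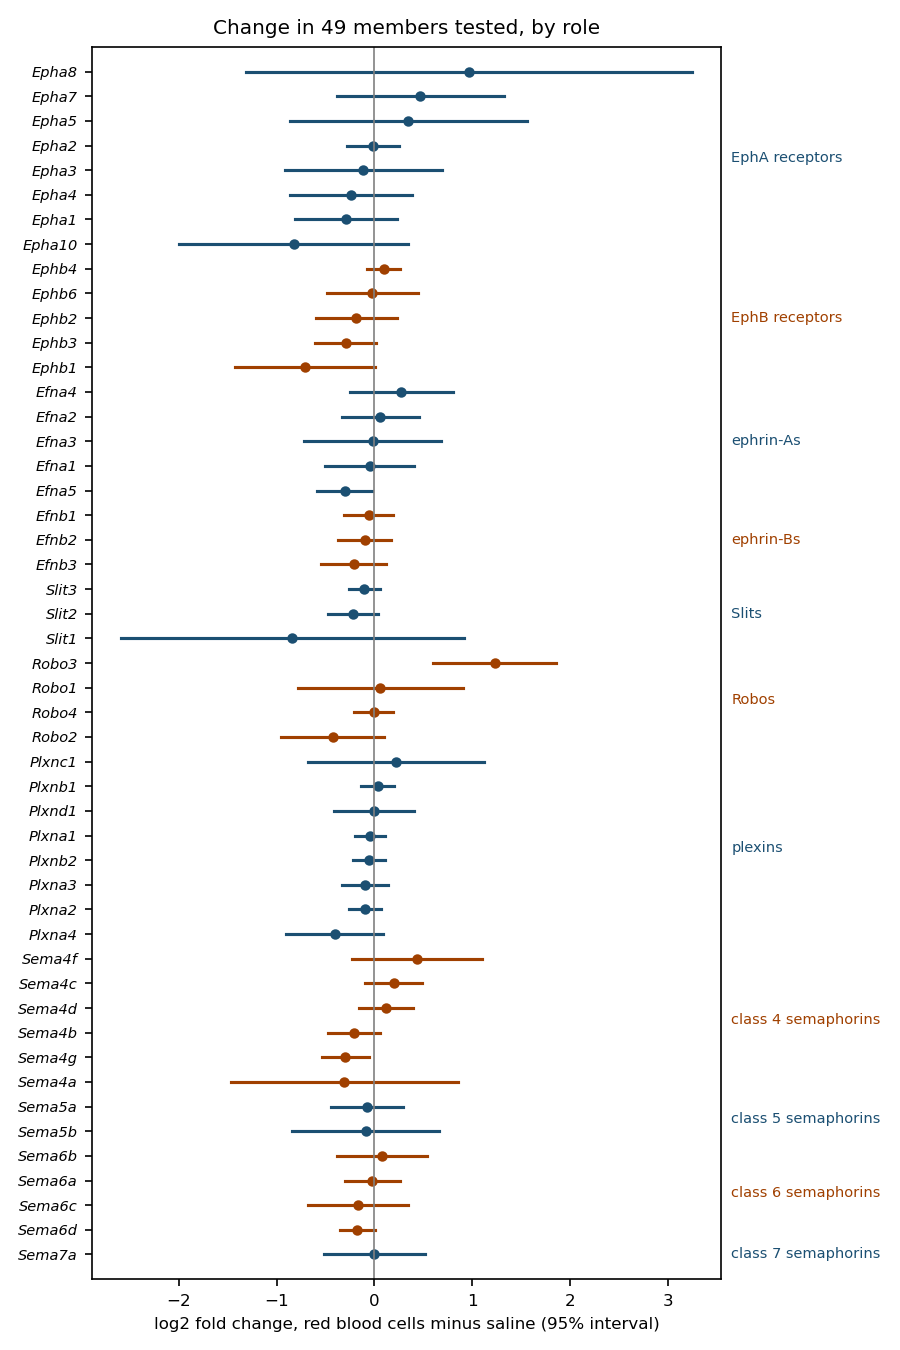
Log2 fold change of red blood cells minus saline with its 95% interval for the 49 members tested, grouped by role from EphA receptors (top) to class 7 semaphorins (bottom). The interval of Robo3, 0.60 to 1.86, is the one farthest from 0, Sema4g and Efna5 lie just below 0, and the intervals of the other members include 0.

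By estimate, 35 of the 49 members were lower after red blood cells (71.4%, where 50.1% of all genes were) and 14 were higher (49.9% of all genes). The log2 fold change had a median of -0.06 among the members and of -0.0003 among all genes. This count changed with the red blood cell library left out. Averaged over the members, red blood cell libraries 1 and 2 were below every saline library and library 3 was above them all. Without red blood cell library 1, 30 members were lower and 19 higher, with a median of -0.03. Without red blood cell library 2, 24 members were lower and 25 higher, with a median of 0.00, and without library 3, 39 were lower and 10 higher, with a median of -0.23. Across roles the lower estimates were spread out: 5 of 8 EphA and 4 of 5 EphB receptors, 3 of 5 ephrin-As, 3 of 3 ephrin-Bs, 3 of 3 Slits, 2 of 4 Robos, 6 of 8 plexins and 9 of 13 semaphorins.

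The spread among red blood cell libraries was wider for the members than for genes at large. The median SD of log2 CPM over the members was 0.27 among red blood cell libraries and 0.19 among saline libraries, while over all 14869 genes it was 0.15 and 0.15. Red blood cell library 3 held the highest value of all 7 libraries for 18 of 49 members (36.7%, against 16.7% of all genes). Library 2 held the lowest value for 23 of 49 (46.9%, against 17.1% of all genes). The next most frequent lowest library was saline 3, with 7 members (14.3%, against 15.3% of all genes), and red blood cell library 1 was highest for 0 members (11.3% of all genes). For 10 members red blood cell library 3 was highest and library 2 lowest (20.4%, against 4.03% of all genes). They were Efna1, Efna2, Efnb1, Efnb2, Epha3, Epha8, Plxnd1, Sema6a, Sema6c and Sema7a. Averaged over the members, the deviation from the saline mean in log2 CPM was -0.14, -0.35 and 0.21 in red blood cell libraries 1, 2 and 3, while saline libraries ranged from -0.08 to 0.04. No test was made on these counts, since the libraries were singled out after their values were seen.

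**Figure D4:**
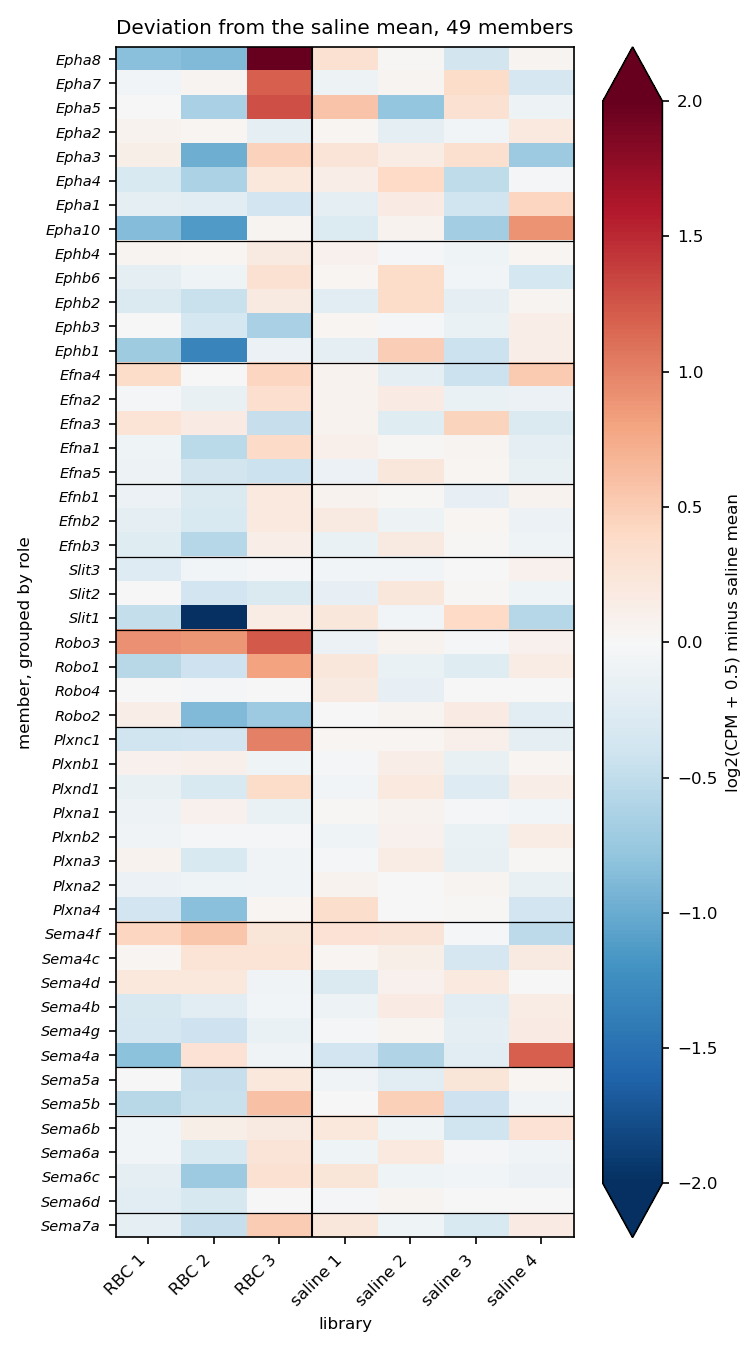
Deviation of log2(CPM + 0.5) from the saline mean for the 49 members tested (rows, grouped by role) in each library (columns, RBC for red blood cells, left of saline), with the colour scale cut at 2 in either direction. Red blood cell library 2 is blue and library 3 red for many rows, Robo3 is red in all 3 red blood cell libraries, and Slit1 in library 2 and Epha8 in library 3 reach the ends of the scale.

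The summed mesenchyme, endothelial and pericyte markers were also lowest in red blood cell library 2 and highest in library 3, and the other lists were not. Summed CPM of 8 mesenchyme and fibroblast markers was 1800.3, 1535 and 2808 in red blood cell libraries 1, 2 and 3 and 1831 to 2024 in the saline libraries, with 7 of the 8 markers highest in library 3 and 6 of 8 lowest in library 2. The 8 endothelial markers summed to 908, 828 and 1224 CPM after red blood cells and 976 to 1027 CPM after saline, with 6 of 8 highest in library 3 and 6 of 8 lowest in library 2. The 7 pericyte and smooth muscle markers summed to 421, 371 and 613 CPM after red blood cells and 419.9 to 491 CPM after saline, with 5 of 7 highest in library 3 and 3 of 7 lowest in library 2. The 13 neuron and neural progenitor markers summed to 481, 369 and 472 CPM after red blood cells and 467 to 524 CPM after saline, and 11 of the 13 were lowest in library 2. Red blood cell libraries were lower by estimate for 12 of the 13 (median -0.77 in log2), and 0 passed the threshold. Dcx, a marker of young neurons picked after its values were seen, had 20.7, 5.45 and 28.4 CPM after red blood cells. It had 39.5, 32.4, 31.2 and 19.5 CPM after saline. None of these markers was at 0 in any library, and their part in the results was not tested.

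**Figure D5:**
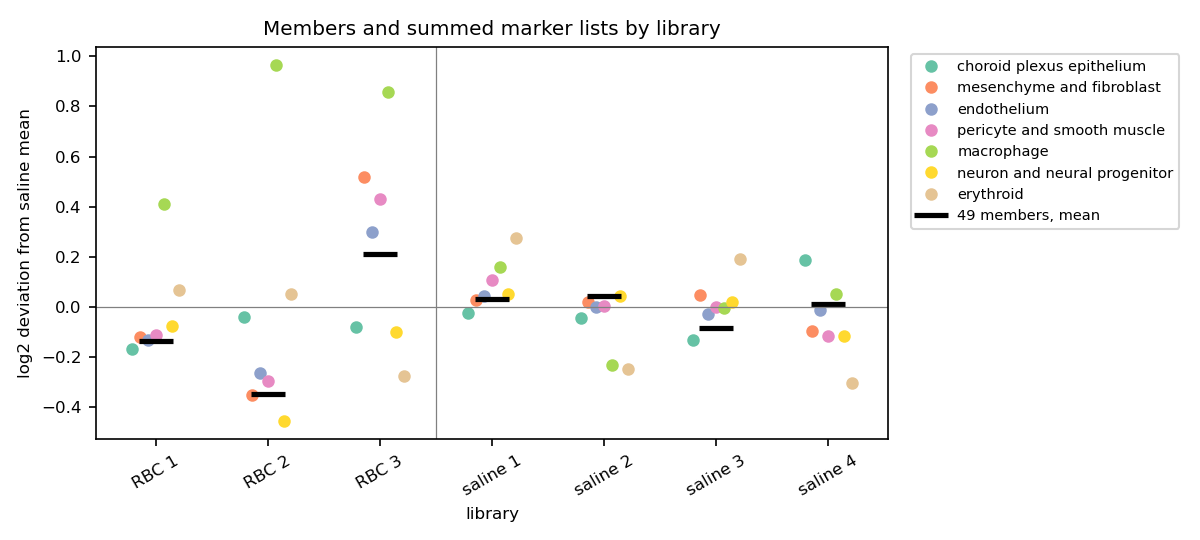
Deviation from the saline mean, in log2, of the summed CPM of 7 marker lists (dots, shifted sideways for sight) and of the mean over the 49 members tested (black bars) in each library, red blood cells (RBC) left of saline. The members, mesenchyme, endothelium and pericyte lists are lowest in red blood cell library 2 and highest in library 3, and the macrophage list is above every saline library in all 3.

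Epithelial markers of the choroid plexus, 11 in number, summed to 19134, 20895 and 20305 CPM after red blood cells and 19604 to 24448 CPM after saline. None was at 0, and so they showed the labelled tissue in all libraries. By estimate 2 of the 11 were higher after red blood cells, and 0 passed the threshold. The 9 macrophage markers summed to 346, 509 and 473 CPM after red blood cells and 222 to 291 CPM after saline, the one cell type list whose groups did not overlap, with 9 of 9 higher by estimate and Adgre1 past the threshold (edgeR adjusted p = 0.0280). Robo3 shared this arrangement of the groups, higher without overlap, as did 4.96% of all genes. The 10 interferon response genes summed to 499, 1552 and 302 CPM after red blood cells and 82.6 to 125 CPM after saline. Their groups did not overlap either, with 10 of 10 higher by estimate and 0 past the threshold. The highest library was 2 for the macrophage and interferon lists and 3 for Robo3. The 7 erythroid markers summed to 2829, 2804 and 2231 CPM after red blood cells and 2189 to 3273 CPM after saline, with overlapping groups. Of these, 1 of 7 was higher by estimate and 0 passed the threshold. Of the 7 neutrophil markers 2 had enough counts to be tested, and the 7 summed to 4.39, 70.2 and 8.33 CPM after red blood cells and 2.41 to 18.03 CPM after saline, with Mpo, Elane and Retnlg at 0 in at least 1 library. The part of these lists in the results was not tested.

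Genes that act beside or below these receptors were read from a further list of 47, of which 45 could be tested. In edgeR, DESeq2 and limma-voom 0 passed over all genes. The unadjusted edgeR p was under 0.05 for 4 of the 45, against 9.54% of all genes, with 2 higher (5.22% of all genes) and 2 lower (4.32%). By estimate 21 were higher (49.9% of all genes) and 24 lower (50.1%), and the median log2 fold change was -0.003. Tyrobp, an adaptor of myeloid cells that plexin-A1 can signal through with Trem2, had 14.9, 21.3 and 15.4 CPM after red blood cells and 12.1, 7.54, 8.61 and 11.3 CPM after saline (0.80 ± 0.20, edgeR adjusted p = 0.141). All its red blood cell libraries lay above all saline libraries, as did those of the macrophage list. Trem2 had 6.15, 5.90 and 2.35 CPM after red blood cells and 2.51 to 4.58 CPM after saline, with overlapping groups. Rras, a small GTPase that plexins inactivate, had a log2 fold change of 0.41 ± 0.15 (edgeR adjusted p = 0.360), also without overlap of the groups. The same held for Rhoa (0.12 ± 0.06, edgeR adjusted p = 0.563). Of all genes, 4.96% were higher without overlap. Srgap3, which carries Robo signals to Rac, and Dpysl5, a collapsin response mediator of growing axons, had -0.21 ± 0.09 and -0.56 ± 0.23 (edgeR adjusted p = 0.458 and 0.461), with overlapping groups.

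A few members share exon bases with genes on the opposite strand, and no source used here says whether the counting used strand. Epha1 shares 7.08% of its exon bases with Zyx, which had 1912 counts over the 7 libraries against 290 for Epha1, and the values of Epha1 are uncertain for that reason. Plxnb1 shares 10.5% with Gm7628, which had 153 counts against 16789 for Plxnb1. For the other 8 members with any shared bases the share was at most 3.73% per overlapping gene.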

How the data were processed

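Raw counts per gene, with positions on GRCm39 and exon lengths, were deposited by the authors as 1 table of 7 libraries in featureCounts layout, per the file headers. Per the submitters' processing notes the tools were cutadapt 2.5, STAR 2.6.1b and featureCounts 2.0.6; the labels' protocols describe a directional library. Strand setting, multi-mapping and annotation release are not given. For 6 genes, none a member, the line is broken in 2, and they were left out (continuation lines: 0.0751% of counts).

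The robust, two-sided quasi-likelihood F test of edgeR 4.0.16 (R 4.3.3, TMM, filterByExpr) was run on 14869 genes with Benjamini-Hochberg adjustment over all of them and 0.05 as threshold. Differences are given as red blood cells minus saline on the log2 scale, with the SE taken from the F statistic. Log2 CPM for spreads had a prior count of 2. Biological variation between libraries had a common coefficient of 13.7%. No 2 libraries agreed within sampling noise (chi-square per degree of freedom at least 3.60).

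Members, lists and tests were chosen with earlier results of these data known. By rule, each library's value is given for members with an unadjusted p under 0.05 and for the most abundant member per length of each role, counts are given for members too low to test (Epha6, Plxnb3), and effectors with an unadjusted p under 0.05 are named. Other members given by library (Epha8, Ephb1, Plxnc1, Plxnd1, Robo1, Robo2, Sema4a, Slit1, Slit2) were chosen after their values were seen. The marker Dcx and the effectors Rhoa and Trem2 were also chosen that way. Promoter windows are RefSeq's on GRCm38.p6. Alternatives were DESeq2 1.42.0, limma-voom (limma 3.58.1), other normalizations and filters, no robust estimation, a replicate block and libraries left out. The test was tried on simulated data first. Plots were made with matplotlib 3.10.9.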

Additional observations from a re-analysis of the deposited data

Results flagged for a closer look

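Sema4a had 10.7 CPM in saline 4, where the other saline libraries had 2.73 to 3.71 CPM, a gap that stands apart from the spread of the group (Dixon's criterion for 4 samples). Sema6c had 12.6 CPM in saline 1, where the other saline libraries had 9.73 to 10.2 CPM. These were 2 flags among 51 members, and chance flags about 1 group in 20.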

How the results depend on the processing

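Over 17 alternatives, 0 members passed the threshold in each, and the lowest adjusted p of any member was 0.0855, reached without red blood cell library 1. That member was not Robo3, which had an edgeR adjusted p of 0.207 in that setting. Sema6d had an edgeR adjusted p of 0.0922 without red blood cell library 3. With libraries left out in turn the number passing stayed at 0, the number lower ran from 24 to 39, the number higher from 10 to 25, and the median log2 fold change of the members from -0.23 to 0.0003. Leaving out red blood cells 2 and saline 4 together gave 24 lower and 25 higher, with a median of 0.012. Robo3 stayed between 1.11 and 1.33 in log2, with an unadjusted p under 0.05 in 16 of the 16 alternatives that kept it and adjusted p from 0.108 to 0.358; a filter at a mean count of 50 removed it. Sema4g had an unadjusted p under 0.05 in 12 and Efna5 in 11 of 17. Members with estimates near 0 changed sign. Sema7a had 0.0021 with DESeq2, 0.0043 without the count filter, 0.017 with the replicate block and 0.24 without red blood cells 2 and saline 4 together, and -0.32 to 0.19 with libraries left out in turn. Without that pair Efna1 had 0.11, Efnb1 0.072 and Sema5b 0.051. With libraries left out in turn, Efna1 ran from -0.30 to 0.15, Efnb1 from -0.20 to 0.044, Robo4 from -0.068 to 0.053, Sema5b from -0.55 to 0.13 and Plxnb2 from -0.092 to 0.0012. Without the count filter 1 of the genes beside the receptors, Tyrobp, passed, where 0 did otherwise. Over all genes the number past the threshold ran from 1 to 283, against 9 as reported. Replicate numbers are shared by the groups but not said to pair libraries; same-numbered libraries had correlations of -0.008, -0.17 and -0.17 in their deviations from the group means, and with the replicate block 0 members passed, 31 were lower and 18 higher. Counts limit the low members: Robo3 rests on 7 to 26 counts per library.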
